A study of Mus musculus with 8 samples.

Results

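Zinc handling was followed through 10 genes in pancreatic islets of mice, the clusters of cells that make insulin, glucagon and other hormones: the metallothioneins Mt1 and Mt2, the zinc exporters Slc30a1, Slc30a5, Slc30a7 and Slc30a8, and the zinc importers Slc39a6, Slc39a7, Slc39a10 and Slc39a14. They were taken by symbol from both deposited tables, and all 10 of 10 were found among 24469 genes. The islets were hand-picked, the mice were 8 weeks old, and 4 mice were used for each genotype. The 4 wild-type libraries came from C57BL/6 mice. The 4 knockout libraries came from mice on the same background with loss of U32a, U33, U34 and U35a, which are box C/D snoRNAs encoded in Rpl13a and belong to a class of small RNAs that guide ribose methylation of other RNAs. The comparison asked which islet transcripts differ between mice with and without these snoRNAs. The labels do not give the sex of the mice, and do not say whether the loss is limited to some tissues.

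Beta cells pack insulin into granules as a crystal with zinc, and the granule transporter ZnT8, encoded by Slc30a8, brings the zinc in. Transporters of the ZnT (Slc30) family move zinc out of the cytosol, across the plasma membrane or into organelles, and those of the ZIP (Slc39) family move it into the cytosol. Metallothioneins are small cysteine-rich proteins that bind zinc and copper, and the zinc sensor MTF1 raises their transcription, as glucocorticoids and oxidants also do. In bulk islets, fewer cells of a type and less RNA per cell cannot be told apart.

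The libraries held 21235196 to 41148318 assigned counts, of which the ribosomal RNA precursor Rn45s took 36.7 to 41.3%. The 4 targeted snoRNAs summed to 15 counts in the 4 wild-type libraries together and to 0 in the 4 knockout libraries. All of these counts were of U32a and U33. U34 and U35a had 0 counts in every library, wild type included, so their loss could not be checked here. A count of 0 still allows 3 counts, by counting error alone. Beta-cell genes were abundant in every library, since 12 marker genes, Ins1 and Ins2 among them, took 8.66 to 24.0% of counts. A list of 19 acinar (exocrine) markers took 1.14 to 13.8%, highest in wild-type replicate 1 and lowest in wild-type replicate 2, and none of these markers was at 0 in any library. Knockout replicate 2 stood apart in liver genes: 12 liver markers summed to 5536 CPM there, while the list held 7.76 to 15.6 CPM in the other 7 libraries. Of these 12 markers 0 were at 0 in that library and 1 to 4 in each of the others. CPM denotes counts scaled to one common library size, after the TMM method had corrected the sizes for composition. The X-inactivation RNA Xist passed 1000 counts in 1 wild-type and 2 knockout libraries, and with this split as a term in the fit 0 of the 10 genes passed the test.

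Mt1 and Mt2 lie next to each other on mouse chromosome 8, with 0 genes between them in the RefSeq table of GRCm38.p6. Their coding sequences (GENCODE M21, GRCm38, without the stop codon) are each 183 bases or 61 codons long, and 20 of these codons are for cysteine, the residue that holds the metal. The coding sequences are shown because reads of paralogs can be exchanged by a counting method, and capitals mark the bases at which the 2 genes differ.
Mt1: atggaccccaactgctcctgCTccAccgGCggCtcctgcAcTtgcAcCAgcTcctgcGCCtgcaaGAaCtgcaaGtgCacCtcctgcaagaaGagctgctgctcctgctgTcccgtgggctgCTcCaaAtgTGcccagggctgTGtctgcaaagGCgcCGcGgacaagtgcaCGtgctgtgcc
Mt2: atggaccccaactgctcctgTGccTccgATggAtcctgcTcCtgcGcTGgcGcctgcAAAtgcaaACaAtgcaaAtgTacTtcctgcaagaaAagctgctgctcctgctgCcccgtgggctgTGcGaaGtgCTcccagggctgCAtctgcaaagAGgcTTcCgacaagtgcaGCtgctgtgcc
They differ at 38 bases and are 79.2% identical, and the longest stretch shared by both transcripts was 20 bases. An annotated gene on the opposite strand, Gm45774, covers 73.5% of the Mt2 exons. Whether the authors' counting used strand, or an annotation with that gene, is not given in the sources used here. It is therefore not known whether reads of Mt2 and of Gm45774 were told apart.

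Promoters of Mt1, Mt2 and Slc30a1 are shown because MTF1 is known to act on these genes through metal response elements and because their levels are compared below library by library. Each window runs from 250 bases before to 50 bases after the start site, 300 bases in all, from RefSeq on GRCm38.p6 (a later build than the mm9 of the submitters' notes). Capitals mark the core of the metal response element, searched as TGCACNC and TGCGCNC on both strands.
Mt1 (chr8:94178839-94179138, + strand): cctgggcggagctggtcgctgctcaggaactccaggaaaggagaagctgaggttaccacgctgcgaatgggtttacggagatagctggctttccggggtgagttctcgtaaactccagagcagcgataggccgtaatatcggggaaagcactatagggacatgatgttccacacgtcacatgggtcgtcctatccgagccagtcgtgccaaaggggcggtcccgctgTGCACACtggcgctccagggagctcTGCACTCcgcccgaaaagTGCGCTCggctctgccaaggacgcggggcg
Mt2 (chr8:94172368-94172667, + strand): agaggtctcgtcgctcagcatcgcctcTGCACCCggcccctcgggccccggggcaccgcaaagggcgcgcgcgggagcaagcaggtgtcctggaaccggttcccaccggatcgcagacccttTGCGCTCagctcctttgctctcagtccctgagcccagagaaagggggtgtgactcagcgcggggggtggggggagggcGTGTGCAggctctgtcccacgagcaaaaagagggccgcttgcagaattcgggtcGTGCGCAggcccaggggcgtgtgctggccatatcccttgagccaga
Slc30a1 (chr1:191906531-191906830, + strand): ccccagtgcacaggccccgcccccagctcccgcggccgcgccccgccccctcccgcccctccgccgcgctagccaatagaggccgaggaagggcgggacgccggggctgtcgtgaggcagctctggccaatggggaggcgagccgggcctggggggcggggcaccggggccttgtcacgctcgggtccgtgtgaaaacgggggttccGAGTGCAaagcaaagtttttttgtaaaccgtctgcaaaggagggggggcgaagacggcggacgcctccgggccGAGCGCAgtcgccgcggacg
In these windows Mt2 held 4 matches, Mt1 held 3 and Slc30a1 held 2. The Mt1 matches began at -23, 2 and 20 bases from the start site used. The longest annotated Mt1 transcript has 1.085 kb, and the one whose coding sequence is shown has 549 bases. Whether the Mt1 window holds the promoter of that shorter transcript was not tested, so 3 describes this window only. Among all 32851 promoter windows of this length, 0.517% held at least 4 matches, 1.97% at least 3, 7.11% at least 2 and 25.7% at least 1. Slc30a5 held 1 match, and Slc30a7, Slc39a7 and both windows of Slc39a10 held 0. For Slc30a8, Slc39a6 and Slc39a14 no window was available, so their promoters were not searched. A match is a run of letters and not a measured binding site.

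Metallothionein RNA differed more among animals of one genotype than between the genotype means. Mt1 was at 400, 180, 101 and 187 CPM in wild-type replicates 1 to 4 and at 190, 87.1, 327 and 219 CPM in knockout replicates 1 to 4. Wild-type replicate 1 and knockout replicate 3 were the highest and knockout replicate 2 the lowest, and the genotypes overlapped. Mt2 was at 302, 124, 59.8 and 134 CPM in wild type and at 97.6, 103, 364 and 240 CPM in knockout. The highest Mt2 library was knockout replicate 3 and the lowest wild-type replicate 3, again with overlap. The highest library exceeded the lowest 4.6-fold for Mt1 and 6.08-fold for Mt2. The coefficient of variation over the 8 libraries was 50.2% for Mt1 and 61.7% for Mt2, where the median of the 5103 genes at 10 CPM or more was 13.2%. These values were above those of 97.0% and 97.5% of these genes.

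The fitted log2 fold change, knockout over wild type, was -0.08 ± 0.53 (SE) for Mt1, with a 95% interval of -1.35 to 1.2 (edgeR quasi-likelihood test, adjusted p = 0.951). For Mt2 it was 0.37 ± 0.64, with an interval of -1.18 to 1.93 and an adjusted p of 0.782. Both intervals reach past 1 and past -1 on the log2 scale. A 2-fold genotype effect in either direction was therefore not excluded with 4 animals a group. Without wild-type replicate 1 the estimates were 0.38 for Mt1 and 0.90 for Mt2, and without knockout replicate 3 they were -0.40 and -0.09. Neither passed an FDR (adjusted p) of 0.05 in any of the 22 other settings run.

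The metallothioneins did not follow the acinar share in every library. The acinar markers summed to 185060 CPM in wild-type replicate 1 and 180600 CPM in knockout replicate 3, the libraries highest in both genes. They summed to 146160 CPM in knockout replicate 1, which had the second lowest Mt2, and to 8489 CPM in wild-type replicate 2, which had an intermediate level of both. With the acinar sum as a term in the fit, the log2 fold changes were -0.42 for Mt1 and 0.10 for Mt2 (edgeR adjusted p = 0.703 and 0.956). Knockout replicate 2, the library with liver RNA, had the lowest Mt1 and the third lowest Mt2, and with the liver sum as a term the log2 fold changes were 0.31 and 0.70 (edgeR adjusted p = 0.790 and 0.661). The part of other cell types in the metallothionein levels was otherwise not tested.

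**Figure D1:**
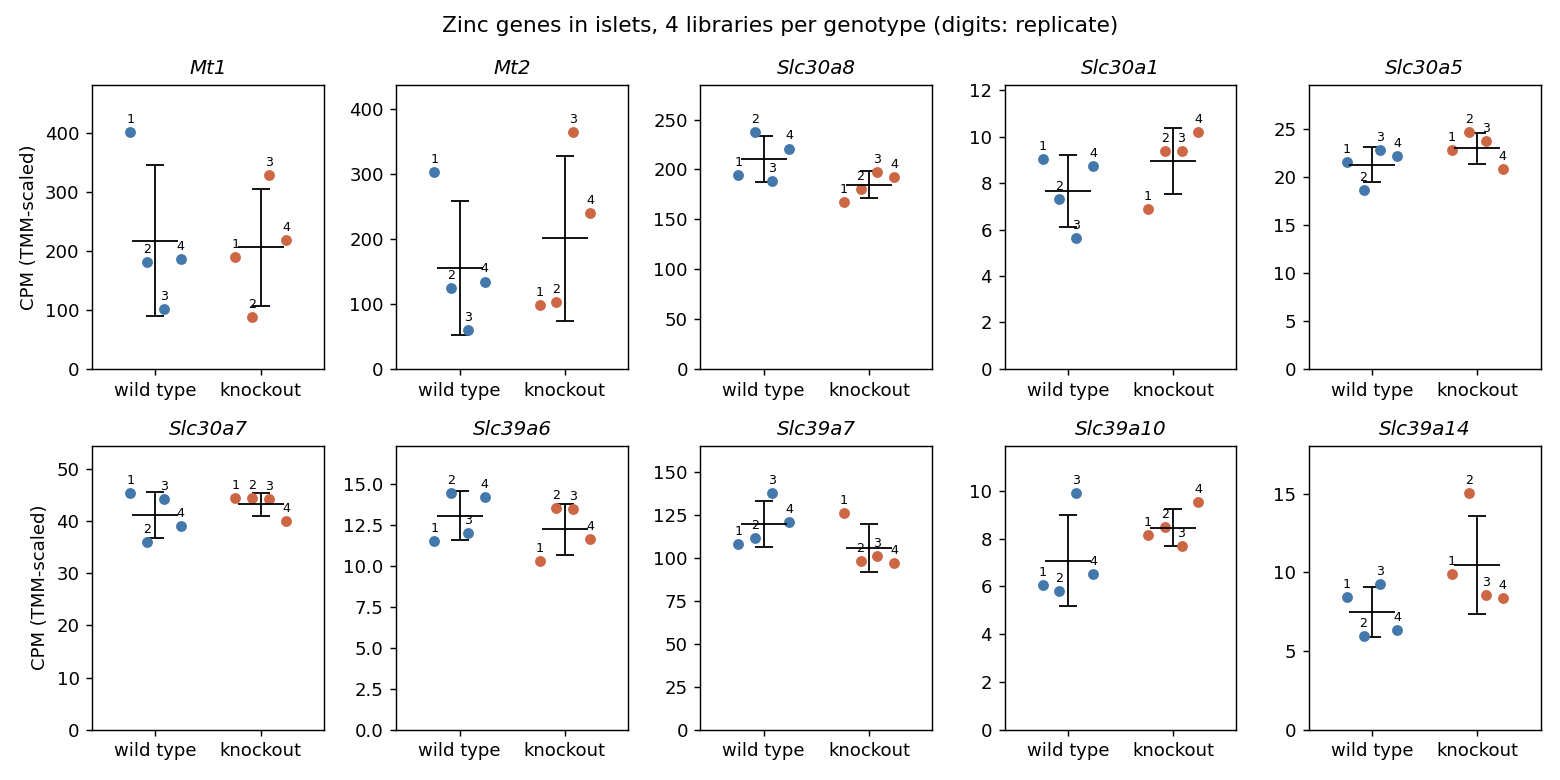
CPM of each of the 10 zinc genes in the 8 libraries, on linear axes from 0; points are libraries with the replicate number, and bars are mean ± SD of 4 libraries. Mt1 and Mt2 spread several-fold within each genotype, while Slc30a8, Slc30a5 and Slc30a7 stay close to their means.

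The balance of Mt1 and Mt2 within a library separated 3 of the 4 knockout animals from the wild type. In wild-type replicates 1 to 4 the ratio of Mt1 to Mt2 counts was 1.32, 1.45, 1.69 and 1.39. In knockout replicates 1 to 4 it was 1.95, 0.845, 0.90 and 0.911. Mt1 was thus the more counted gene in all 4 wild-type libraries, and Mt2 in 3 of 4 knockout libraries, while knockout replicate 1 had the highest ratio of all. On the log2 scale the mean was 0.54 ± 0.15 (SD) in wild type and 0.11 ± 0.57 in knockout. The difference was -0.44, and the exact permutation test over 70 splits, two-sided, gave p = 0.143 (0.143 after adjustment over the 3 ratios tested), so it did not exceed the spread between libraries. Without knockout replicate 1 the difference was -0.72, with an exact permutation p of 0.0571, the smallest that 4 against 3 libraries allow. Without knockout replicate 2, 3 or 4 it was -0.32, -0.35 and -0.35, each with an exact permutation p of 0.286, and without any 1 wild-type library it was -0.48 to -0.36 with an exact permutation p of 0.229.

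**Figure D2:**
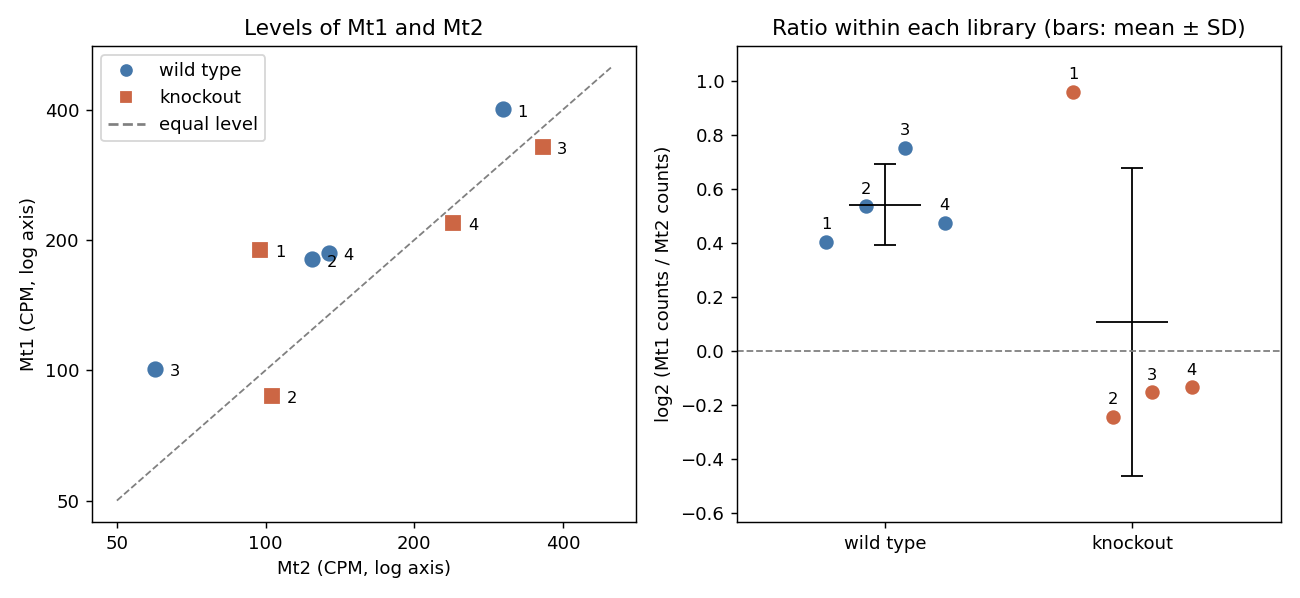
Left, Mt1 against Mt2 in CPM on log axes, one point per library with its replicate number, circles for wild type and squares for knockout; the dashed line marks equal levels. Right, the log2 ratio of Mt1 to Mt2 counts with mean ± SD of 4 libraries: wild-type libraries lie between 0.41 and 0.75, and 3 knockout libraries lie between -0.24 and -0.13 with replicate 1 at 0.96.

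Over the 8 libraries, Pearson's r of log2 CPM was 0.87 between Mt1 and Mt2, 0.77 between Mt2 and Slc30a1 and 0.43 between Mt1 and Slc30a1. These values describe 8 libraries that share their depth and cell makeup, and no test was made of them. Among 5101 other genes at 10 CPM or more, those closest in pattern to the mean of Mt1 and Mt2 were Tead1 (r = 0.94), Cul1 (0.89), Glyr1 (0.88), Ss18 (0.86) and Ralgapb (0.86).

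The zinc sensor gene and Mt3 did not pass the test either, and Mt4 could not be tested. Mtf1, the gene of the zinc sensor, was at 30.4 to 33.4 CPM in wild type and 27.2 to 31.5 CPM in knockout, with a log2 fold change of -0.13 ± 0.09 (edgeR adjusted p = 0.436). Mt3, the metallothionein best known from brain, had means of 1.79 CPM in the wild-type and 1.45 CPM in the knockout libraries, with a log2 fold change of -0.29 ± 0.24 (adjusted p = 0.523). Mt4, known from stratified epithelium, had 0 counts in all 8 libraries.

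Of the 8 transporters Slc30a8 had the highest level per length. It was at 194, 237, 188 and 221 CPM in wild-type replicates 1 to 4 and at 168, 181, 198 and 192 CPM in knockout replicates 1 to 4. The 2 highest libraries were wild type and the 2 lowest knockout, and the genotypes overlapped between 188 and 198 CPM. Means were 210 ± 23.1 CPM and 185 ± 13.4 CPM (SD, n = 4 each). The log2 fold change was -0.19 ± 0.11 (SE) with a 95% interval of -0.42 to 0.05 and an edgeR adjusted p of 0.353. A 2-fold loss of Slc30a8 RNA lay outside that interval. Per kilobase of annotated exon, wild-type levels were 106.6 ± 11.7 CPM for Slc30a8, 50.7 ± 5.65 for Slc39a7, 6.71 ± 0.58 for Slc30a5, 4.57 ± 0.49 for Slc30a7 and 3.36 ± 0.38 for Slc39a6, with no overlap between neighbours in this order. Slc30a1, Slc39a14 and Slc39a10 followed at 1.46, 1.44 and 1.29 CPM per kilobase, and these neighbours overlapped. Mt2 and Mt1 stood at 264 ± 176 and 174 ± 103 CPM per kilobase, overlapping each other, and Mt1 also overlapped Slc30a8. The annotated exons of all transcripts together span 1.246 kb for Mt1 and 0.588 kb for Mt2. The transcripts whose coding sequences are shown above are 549 and 511 bases long. The order of Mt1 and Mt2, and the overlap of Mt1 with Slc30a8, therefore depend on the length used.

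The mean level of Slc30a8 was lower in the knockout, that of most other beta-cell markers was lower still relative to wild type, and the ratio of Slc30a8 to them was therefore higher. Of the 12 beta-cell markers, Slc30a8 included, 11 had negative log2 fold changes with a median of -0.41. At an unadjusted p under 0.05 in edgeR 7 were lower (10.3% of all genes were), 0 passed FDR 0.05, and 5 separated the genotypes downward (4.66% of all genes did). Without wild-type replicate 1, 6 of 12 were called lower at FDR 0.05, where 6.08% of all genes were. The summed level of the 12 markers was 134800 to 183980 CPM in wild type and 105850 to 134510 CPM in knockout. The log2 CPM of Slc30a8 less the mean log2 CPM of 11 other beta-cell markers was -1.02, -1.04, -1.31 and -1.19 in wild-type replicates 1 to 4. It was -1.003, -0.96, -0.83 and -0.87 in knockout replicates 1 to 4, so the genotypes did not overlap, although knockout replicate 1 was close to wild-type replicate 1. The difference was 0.22 on the log2 scale (exact permutation test, two-sided, p = 0.0286, the smallest that 70 splits allow, and 0.0429 adjusted over the 3 ratios). It lay between 0.17 and 0.26 with any 1 library left out, where no p under 0.0571 can be reached. Against Ins2 alone the difference was 0.39, with the same exact permutation p and adjusted p. The markers were chosen with results of these data known, so this p is no independent evidence. The differences against single markers were positive for 8 of 11 and largest for Mafa, the insulin gene activator (0.71), Glp1r, the incretin receptor (0.51), and Ucn3, urocortin 3 (0.46). They were -0.01 against Slc2a2, the glucose transporter GLUT2, 0.01 against Iapp, the amyloid peptide gene, and -0.22 against G6pc2, the islet glucose-6-phosphatase gene. Only for Ins2 and Ucn3 did the genotypes separate in the ratio.

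**Figure D3:**
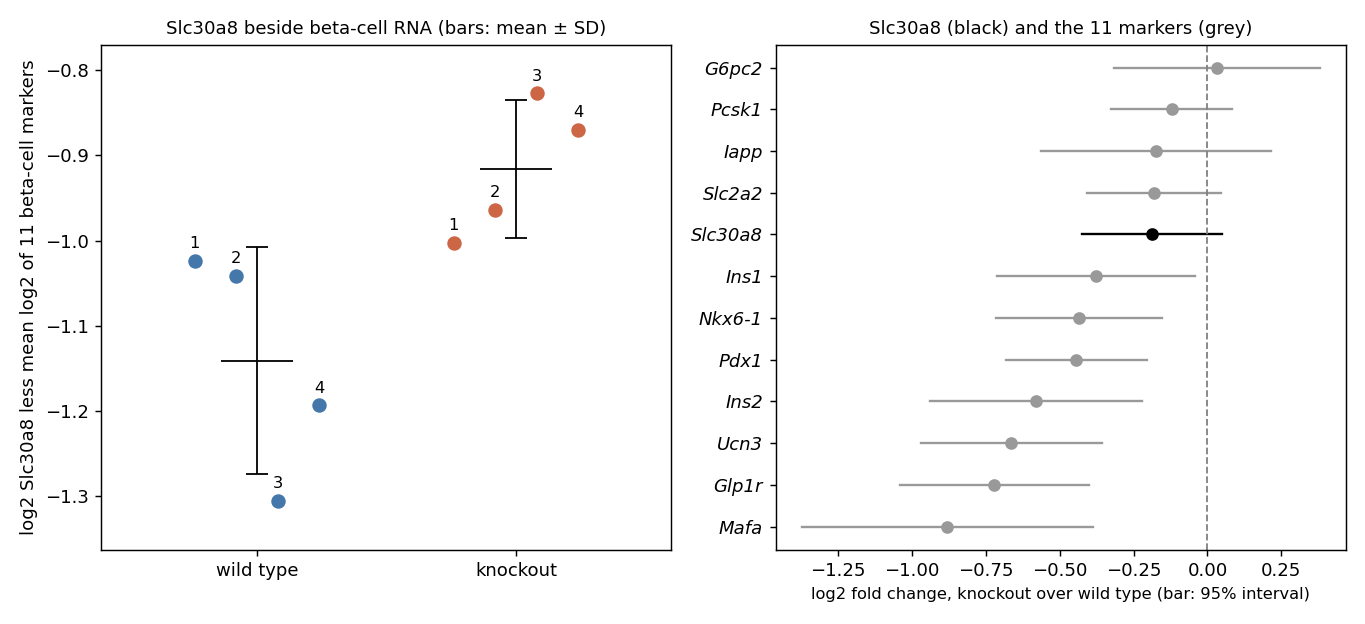
Left, log2 Slc30a8 less the mean log2 of 11 beta-cell markers in each library, with the replicate number and mean ± SD of 4 libraries; the axis does not start at 0. Right, log2 fold changes of Slc30a8 (black) and the 11 markers (grey) with 95% intervals from edgeR: Slc30a8 at -0.19 lies beside Slc2a2 and above Ins2, Ucn3, Glp1r and Mafa.

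In pattern over the libraries, Slc30a8 was closest to Zfp346 (r = 0.95), Smad4 (0.94), Sgsm1 (0.93), Vegfa (0.93) and Fam155a (0.93) of 5102 other genes. Among the zinc genes its r was 0.78 with Slc39a6 and -0.82 with Slc30a7, again as descriptions of 8 libraries.

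The other exporters did not pass the test in any setting. Slc30a1 encodes ZnT1, the zinc exporter of the plasma membrane, whose transcription MTF1 raises. It was at 9.03, 7.32, 5.63 and 8.71 CPM in wild type and 6.88, 9.36, 9.37 and 10.2 CPM in knockout. The knockout libraries, replicate 1 aside, exceeded every wild-type value, and replicate 1 exceeded only wild-type replicate 3, with a log2 fold change of 0.23 ± 0.17 (edgeR adjusted p = 0.480). Knockout replicate 1 was also the knockout library with the lowest Mt2.

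Slc30a5 and Slc30a7 encode ZnT5 and ZnT7, which load zinc into the early secretory pathway. Slc30a5 ranged from 18.7 to 22.8 CPM in wild type and from 20.9 to 24.7 CPM in knockout (log2 fold change 0.11 ± 0.10, adjusted p = 0.545). Slc30a7 ranged from 35.9 to 45.4 CPM and from 39.97 to 44.5 CPM (0.07 ± 0.10, adjusted p = 0.716). Their 95% intervals ended at 0.33 and 0.29, so a rise of 1.5-fold in either was outside what the fit allows. Annotated genes on the opposite strand cover 8.92% of the exons of Slc30a1 and 19.7% of those of Slc30a7, and the estimated counts of both were not whole.

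Of the importers, Slc39a7 was the most abundant. It encodes ZIP7, which releases zinc from the endoplasmic reticulum and Golgi. It was at 108, 111, 138 and 121 CPM in wild type and 126, 98.2, 101 and 96.8 CPM in knockout. In knockout, 3 libraries lay below all wild-type libraries and replicate 1 above 3 of them, and the log2 fold change was -0.18 ± 0.12 (edgeR adjusted p = 0.417). Without knockout replicate 1 it was -0.29. The readthrough gene Gm20427 on the same strand covers 84.5% of its exons, so its counts could have been split. The estimated counts of Slc39a7 were close to whole numbers, as at 3989.9 in wild-type replicate 3 and 3011.1 in knockout replicate 2. Whether reads were split was not tested.

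Slc39a6 and Slc39a10 encode the plasma-membrane importers ZIP6 and ZIP10, close relatives that act as a pair. Slc39a6 ranged from 11.5 to 14.4 CPM in wild type and from 10.3 to 13.5 CPM in knockout (log2 fold change -0.09 ± 0.12, adjusted p = 0.707). Slc39a10, whose transcription MTF1 holds back when zinc is plentiful, was at 6.07, 5.81, 9.92 and 6.53 CPM in wild type and 8.18, 8.48, 7.69 and 9.54 CPM in knockout. Wild-type replicate 3 was the highest of all 8 and knockout replicate 4 the second highest. Over the 8 libraries Pearson's r with Slc39a10 was -0.50 for Mt1, -0.33 for Mt2 and -0.17 for Slc30a1, given as a description. The log2 fold change was 0.26 ± 0.17 (adjusted p = 0.416), and 0.45 without wild-type replicate 3.

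Slc39a14 encodes ZIP14, an importer of zinc, iron and manganese that is abundant in liver and rises with interleukin 6. It was at 8.41, 5.96, 9.23 and 6.33 CPM in wild type and 9.88, 15.0, 8.57 and 8.35 CPM in knockout. Knockout replicate 2 stood far above the rest, knockout replicate 1 lay just above the highest wild-type library, and replicates 3 and 4 lay within the wild-type range. The log2 fold change of 0.49 ± 0.21 had an unadjusted p of 0.0429 and an edgeR adjusted p of 0.252. In knockout replicate 2 the liver markers were also high, as given above. Without that library the log2 fold change was 0.25 (adjusted p = 0.463), and with the liver sum as a term it was 0.18 (adjusted p = 0.620).

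Across the 10 genes, edgeR called 0 at FDR 0.05, against 0.0147% of all 13617 genes tested (2 genes). DESeq2, limma-voom with library weights and limma-trend also called 0 of the 10, where limma-voom called 3.75% of all genes lower and 2.41% higher. At an unadjusted p under 0.05 there was 1 higher gene, Slc39a14, of 10, where 8.42% of all genes were, and 0 lower, where 10.3% were. The genotypes did not separate for any of the 10, against 8.34% of all genes. Of the log2 fold changes 6 were positive and 4 negative, with a median of 0.09 against 0.01 over all genes, and 48.7% of all genes were negative. All 10 had passed the filter on low counts, and the lowest count of any was 117. The count over all genes depended on wild-type replicate 1: without it 9.46% of 13874 genes passed, and 0 of these 10. With only 10 genes, 0 cannot be told apart from that share.

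**Figure D4:**
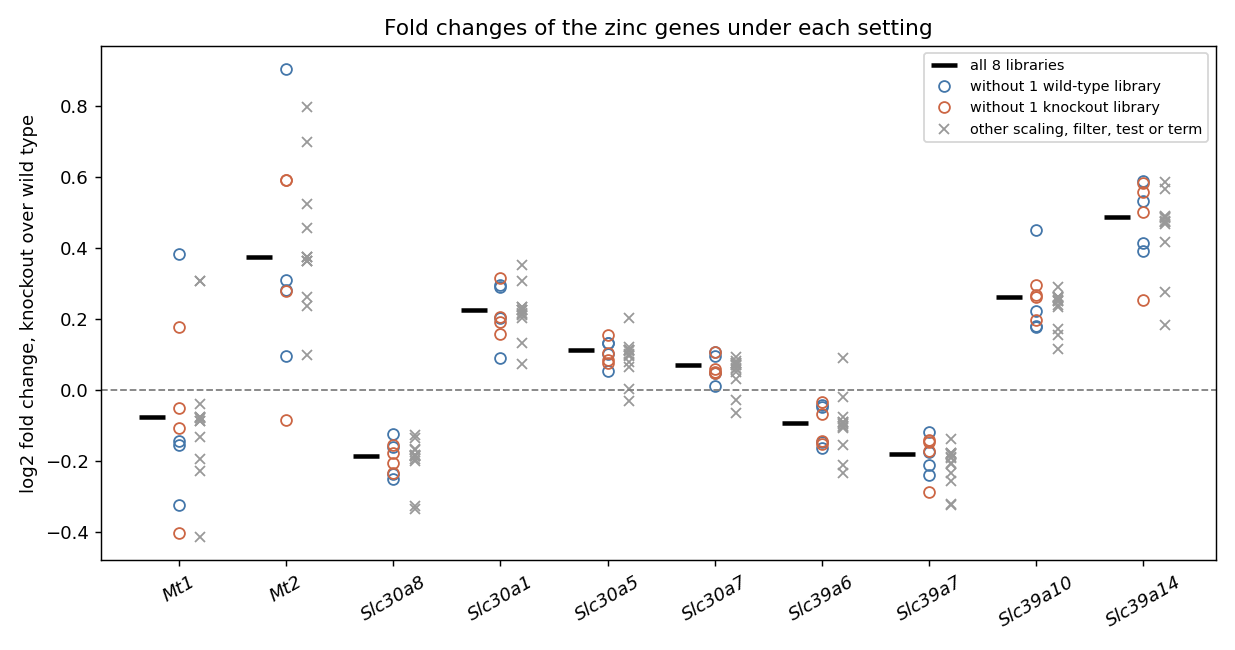
Log2 fold change of each of the 10 genes with all 8 libraries (black bars), without each library in turn (open circles, blue for wild type, orange for knockout) and under other scaling, filters, tests or terms (grey crosses). Mt1 lies between -0.42 and 0.38, Mt2 between -0.09 and 0.90, and Slc39a14 is at 0.25 without knockout replicate 2.

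Of 10 Slc30 genes 9 were tested, 8 with a positive log2 fold change and 0 past FDR 0.05 in edgeR (0 at an unadjusted p under 0.05), with a median of 0.16. The 5 besides those above ranged from 0.03 to 0.52, and those of smallest p were Slc30a9, proposed as a mitochondrial exporter (0.16 ± 0.09, adjusted p = 0.334), and Slc30a4, of intracellular vesicles (0.21 ± 0.15, adjusted p = 0.466). Slc30a3, the exporter of synaptic vesicles, had 0 to 9 counts per library and was not tested.

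Of 14 Slc39 genes 12 were tested, with 7 positive values, a median of 0.15 and 0 past FDR 0.05 in edgeR, while 2 higher and 1 lower had an unadjusted p under 0.05, where 8.42% and 10.3% of all genes did, 18.7% in both directions together. Slc39a13, which encodes the Golgi importer ZIP13, was at 14.1, 16.5, 17.1 and 16.3 CPM in wild type and 13.4, 12.4, 13.96 and 10.7 CPM in knockout. It was the one gene of both families whose genotypes separated (4.66% of all genes did so in this direction), with a log2 fold change of -0.34 ± 0.11 and an edgeR adjusted p of 0.175. Without wild-type replicate 1 it was -0.42 with an adjusted p of 0.0373, in a fit where 6.08% of all genes were called lower. Slc39a4, the intestinal importer ZIP4, was low, at 6 to 13 counts per wild-type library and 9 to 40 per knockout library. Its log2 fold change of 1.22 ± 0.47 (adjusted p = 0.218) was 0.60 without knockout replicate 2, which held the 40 counts. Slc39a12 had 0 counts in every library and Slc39a2 had 1 to 5.

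Slc39a5, Slc30a2 and Slc39a11 had their highest levels in libraries with much acinar RNA. Slc39a5, which encodes the acinar importer ZIP5, was at 16.2, 1.596, 6.53 and 2.997 CPM in wild type and 16.1, 1.57, 13.3 and 6.78 CPM in knockout. It was high in the libraries with most acinar RNA and low in wild-type replicate 2 and knockout replicate 2, the libraries with least. Slc30a2, which loads zinc into secretory vesicles of exocrine cells, was at 4.14, 0.452, 1.31 and 0.364 CPM and 2.53, 0.228, 3.49 and 1.48 CPM. Their log2 fold changes of 0.45 ± 0.93 and 0.28 ± 1.00 had edgeR adjusted p-values of 0.819 and 0.897. With the acinar sum as a term they were -0.18 and -0.30 (adjusted p = 0.702 and 0.674). Slc39a11, which encodes the importer ZIP11, was at 15.9, 3.25, 10.8 and 4.62 CPM in the wild-type libraries and 16.2, 8.58, 17.2 and 11.3 CPM in the knockout libraries. Its log2 fold change of 0.62 ± 0.54 (edgeR adjusted p = 0.550) was 0.40 with the acinar sum as a term (adjusted p = 0.230). Slc39a8, the relative of Slc39a14, was highest in knockout replicate 2 at 20.7 CPM, and its log2 fold change of 0.62 ± 0.44 was 0.29 without that library.

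**Figure D5:**
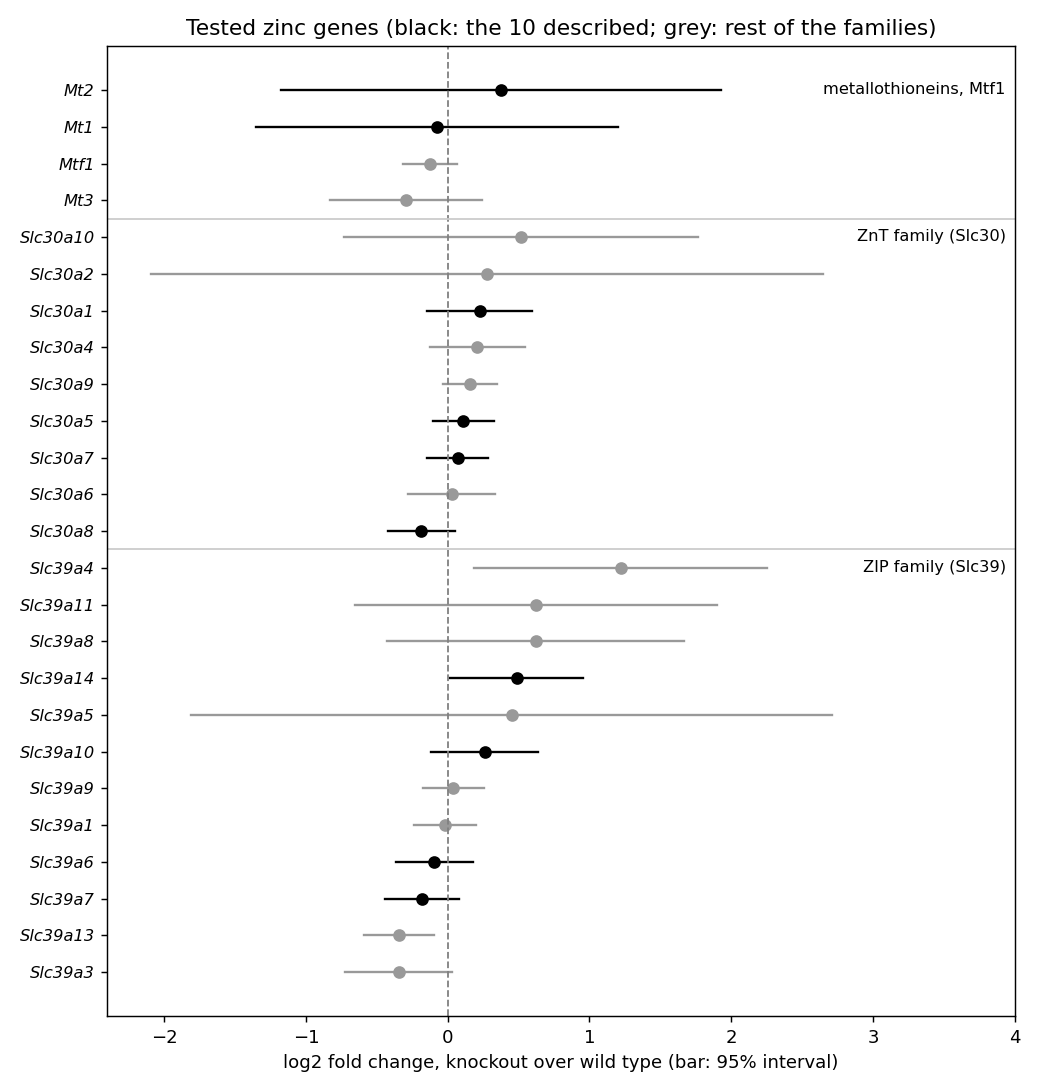
Log2 fold change, knockout over wild type, with 95% intervals from edgeR for the tested metallothioneins, Mtf1, the ZnT (Slc30) and the ZIP (Slc39) genes; black marks the 10 genes described and grey the rest. The intervals hold 0 except those of Slc39a4, Slc39a13 and Slc39a14, and the widest belong to Slc30a2, Slc39a5, Mt1 and Mt2 among others.

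Copper handling genes, which share the metallothioneins as a buffer, had 0 of 10 past FDR 0.05 in edgeR, with a median log2 fold change of 0.17. At an unadjusted p under 0.05 there were 3 higher, where 8.42% of all genes were. Commd1, a copper export regulator, had 0.65 ± 0.20 (edgeR adjusted p = 0.169), and the metal reductase gene Steap4 had 1.305 ± 0.52 (adjusted p = 0.230), and 0.66 without knockout replicate 2. The remaining one was Cp, the ceruloplasmin gene, at 61.1 CPM in knockout replicate 2, where liver markers were high, and 9.59 to 14.3 CPM in knockout replicates 1, 3 and 4. The log2 fold change of 1.77 ± 0.69 (adjusted p = 0.247) was 0.75 without replicate 2. Of 11 tested iron genes 0 passed FDR 0.05 in edgeR and 1 had an unadjusted p under 0.05. That was Trf, the transferrin gene of liver, at 372 CPM in knockout replicate 2 and nowhere else above 1.81 CPM. Its log2 fold change of 6.31 ± 2.53 was -0.02 without that library. The ferritin heavy chain gene Fth1 was at 131 to 154 CPM in wild type and 144 to 184 CPM in knockout (0.23 ± 0.11, adjusted p = 0.270).

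Metallothioneins are classic glucocorticoid-induced genes, and 12 other such genes were compared. Of these, a list written with earlier results of these data known, 7 were higher and 1 lower at an unadjusted p under 0.05, with 0 past FDR 0.05 in edgeR and a median log2 fold change of 0.71. Of all genes 8.42% were higher and 10.3% lower at that p. The genotypes separated upward for 5 of the 12, against 3.68% of all genes. Tsc22d3, the glucocorticoid-induced leucine zipper gene, was at 6.67 to 9.85 CPM in wild type and 13.3 to 15.0 CPM in knockout (0.76 ± 0.14, adjusted p = 0.116). Klf9, a glucocorticoid-responsive transcription factor gene, was at 43.9 to 57.6 CPM and 67.8 to 105 CPM (0.73 ± 0.15, adjusted p = 0.116). Both passed with all 8 libraries in DESeq2 (adjusted p = 0.000412 for Tsc22d3 and 0.00207 for Klf9) and in limma-voom with library weights (0.0276 and 0.0277), but not in limma-trend (0.611 and 0.675). The genotypes overlapped for the other 7 genes of the list, as they did for Mt1 and Mt2. Without wild-type replicate 1, 4 genes of the list were called higher and 1 lower at FDR 0.05, where 3.39% and 6.08% of all genes were.

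Of 8 tested cytokine and acute-phase genes 1 was lower at an unadjusted p under 0.05 in edgeR (10.3% of all genes were) and 0 passed FDR 0.05. That was Socs3, the feedback inhibitor of interleukin 6 signalling, at 3.88 to 9.97 CPM in wild type and 2.48 to 6.18 CPM in knockout (-0.99 ± 0.34, edgeR adjusted p = 0.199). With all 8 libraries Socs3 did pass in DESeq2 (adjusted p = 0.0474), limma-voom with library weights (0.0438) and limma-trend (0.0426). Without wild-type replicate 1 its edgeR log2 fold change was -1.22 with an adjusted p of 0.0291. Irf1, an interferon-response factor gene, had -0.22 ± 0.14 (adjusted p = 0.395). Oxidant-responsive NRF2 targets had 0 of 10 at either threshold in edgeR and a median of 0.06, with Srxn1, the sulfiredoxin gene, at -0.34 ± 0.16 and Me1, the malic enzyme gene, at 0.94 ± 0.45. Me1 reached 14.7 CPM in knockout replicate 2, where liver markers were high, and its log2 fold change was 0.28 without that library.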

How the data were processed

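RNA was sequenced from islets of 4 wild-type and 4 knockout mice. Per the labels' protocols, libraries were made from DNase-treated total RNA with the SeqPlex kit. Per the submitters' processing notes, STAR 2.4.1, Partek and mm9 were used; in the sources used here the step of each, and the annotation, is not given. Estimated counts per gene were deposited by the authors, of which 9.98 to 12.4% per library were not whole within 0.01, and these were rounded. The authors' RPM table holds the same counts over library totals of 37318287 to 67517120 reads.

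Counts were tested with edgeR 4.0.16 (R 4.3.3): TMM, filterByExpr, a robust quasi-likelihood test of genotype, and Benjamini-Hochberg adjustment over 13617 genes. Ratios within libraries were tested with exact two-sided permutation tests. Alternatives used DESeq2 1.42.0, limma 3.58.1 on voom weights or on log2 of RPM plus 1, other library sizes, covariates, a replicate block and each library left out. The edgeR fit was tested on simulated counts. The replicate numbers were not taken as pairs, since nothing in the labels ties same-numbered mice. Levels per kilobase used GENCODE M21 exons (GRCm38), so they depend on that annotation. P-values set the genotype difference against the variation between the libraries of these animals, which also differ in acinar, liver and Xist RNA.

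The genes, lists and named-gene rule were chosen with earlier results of these data known. By that rule the text names all 10 genes, from each list those past FDR 0.05 or else the 2 of smallest p (3 for each transporter family), and the 5 genes of highest Pearson r at 10 CPM or more. Slc39a5, Slc39a8, Slc39a11, Slc30a2, Cp, Errfi1, Sult1a1 and the genes with few counts were named after their values were seen.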

Additional observations from a re-analysis of the deposited data

Results flagged for a closer look

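In 4 of 30 groups of 4 libraries, 1 library lay far from the other 3 by Dixon's criterion at the 95% level, where chance flags about 1 group in 20. The log2 ratio of Mt1 to Mt2 was 0.96 in knockout replicate 1 and -0.24 to -0.13 in the other knockout libraries. Slc39a7 was at 126 CPM in the same library (126.3) and at 96.8 to 101 CPM in the other 3. Slc30a7 was at 39.97 CPM in knockout replicate 4, while the others lay between 44.2 and 44.5 CPM, a gap that is large only against their close agreement. The liver markers summed to 5536 CPM in knockout replicate 2 and to 12.9 to 15.6 CPM in the other knockout libraries. The part of any technical difference in these libraries was not tested.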

How the results depend on the processing

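None of the 10 genes passed FDR 0.05 in any of the 22 other settings, of which 3 (without wild-type replicate 1 and knockout replicate 2 together, Xist as a term, and the 5 libraries with low Xist) were chosen after seeing the data. Of 220 fold changes of single genes 210 kept their direction and 10 turned it; the cause was not tested. Mt1 turned to 0.307 with limma-voom library weights and with the liver sum as a term and 0.653 without wild-type replicate 1 and knockout replicate 2 (Mt2 was then 1.14). With single libraries left out, Mt1 ran from -0.403 to 0.383, positive without wild-type replicate 1 or knockout replicate 2 (0.177). Mt2 turned to -0.0858 without knockout replicate 3, the lowest of a range that reached 0.905. Slc30a5 was at -0.0303 and Slc30a7 at -0.0666 with limma-trend on RPM, and Slc30a7 at -0.0274 with no composition factor, a scaling that put the median of all genes at -0.11 in place of 0.01. Slc39a6 was at 0.0897 in the 5 libraries with low Xist. Genes past FDR 0.05 numbered 2 with all libraries, 48 with no composition factor, 525 with DESeq2, 839 with library weights, 51 with limma-trend, 1296 without wild-type replicate 1 and knockout replicate 2, and 2 to 1313 over the fits that leave 1 library out (1313 lacking wild-type replicate 1, 5 lacking knockout replicate 4). The Slc30a8 difference from beta-cell markers was 0.169 to 0.263 over such fits. The smallest exact p allowed there is 0.0571, so none of them could pass 0.05. As the markers were chosen with results of these data known, this difference has no independent p. With the replicate block (sign-flip test of same-numbered pairs) it was 0.22 with an exact p of 0.125, the smallest that 4 pairs allow. For the Mt1 to Mt2 ratio the block gave -0.44 with an exact p of 0.25. The replicate block in edgeR left 2 genes called and 0 of the 10. Deviations of same-numbered libraries correlated at 0.038, 0.21, 0.156 and 0.147 for numbers 1 to 4, and numbers 2, 3 and 4 correlated best with their own number while number 1 did so with 3, a hint from the data that does not settle whether the numbers pair the mice. At 4 animals a group the wide intervals of Mt1 and Mt2 limit what can be seen.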
